A study of Mus musculus with 16 samples.

Results

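Homing of a haematopoietic stem cell (HSC) to the bone marrow and its retention there depend on surface receptors for chemokines, lipids, selectins and cell adhesion proteins. 9 genes that encode such molecules were described here: *Cxcr4*, *S1pr1*, *Selplg*, *Cd44*, *Alcam*, *Jam3*, *Pecam1*, *Icam1* and *Vcam1*. They were chosen by gene name, and all 9 were found among the 46078 genes of the count table.

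RNA-seq was performed on bulk-sorted HSCs from bone marrow, described as wild type B6.SJL. All cells were enriched for cKit and were gated as cKit+, Sca1+, CD150+ and CD48- without the lineage antigens Ter119, NK1.1, Gr, B220 and CD3e. They were then separated by surface MAC-1, an integrin whose chains are CD11b and CD18. Steady state (SS) HSCs came from untreated mice and were sorted as MAC-1- (n = 3) or MAC-1low (n = 3). HSCs at 4 weeks after transplantation came from recipients given 900 cGy and 8000 LSK (lineage-, Sca1+, cKit+) cells, and were sorted as MAC-1- (n = 3), MAC-1low (n = 4) or MAC-1+ (n = 3). No source used here gives the number of animals behind a sample, so that p-values measure the spread between these samples, which may be technical. MAC-1+ cells were not taken at steady state. In addition, transplantation comes together with irradiation, so that the parts of time, transplantation and irradiation cannot be told apart.

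The 16 libraries held 13781278 to 28580658 counts, and 13661 genes passed the filter on low counts. *Itgam*, which encodes CD11b, ranged from 3.80 to 30.0 CPM (counts scaled to a common library size) in 4 week MAC-1+ HSCs and from 0 to 1.78 CPM in 4 week MAC-1- HSCs. The HSC markers *Hlf*, *Mecom*, *Procr*, *Fgd5*, *Slamf1*, *Kit* and *Ly6a* were found in every population, with summed levels of 530.1 to 704 CPM in 4 week MAC-1- and 2103 to 3173 CPM in 4 week MAC-1+ HSCs. *Cd48*, whose product was gated out, ranged from 71.7 to 133 CPM in 4 week MAC-1- and from 0 to 45.4 CPM in 4 week MAC-1+ HSCs. The summed neutrophil markers set 2 libraries apart, since 4 week MAC-1+ replicates 2 and 3 reached 958 and 6974 CPM and the other 14 libraries lay between 23.1 and 168 CPM. Differences between MAC-1+ and MAC-1- HSCs at 4 weeks are also given without these 2 libraries, which leaves 1 MAC-1+ library that is assumed to vary like the other groups.

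CXCR4 is the receptor of CXCL12, the chemokine made by marrow stromal cells that draws HSCs to the marrow and keeps them there, whereas S1PR1 senses sphingosine-1-phosphate, the lipid that is high in blood and favours exit. PSGL-1, encoded by *Selplg*, carries the sugars that selectins bind during rolling on the vessel wall, and CD44 binds hyaluronan and, when suitably glycosylated, selectins too. The other 5 genes belong to the immunoglobulin superfamily. ALCAM binds itself and CD6, JAM-C (*Jam3*) and PECAM1 sit at cell contacts, and ICAM1 and VCAM1 are the counter-receptors of leukocyte integrins, with MAC-1 itself being a receptor of ICAM1.

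*Cxcr4*, *Alcam* and *Icam1* gave the contrasts between populations on which the account below turns, though edgeR's main test called none of them. The promoter windows of these genes, picked from these data for that reason, are shown. They were taken from RefSeq (GRCm38.p6, 250 bases before to 50 bases after the annotated start), in which a window was found for 4 of the 9 genes, and are written 5′ to 3′ on the strand of the gene. Capitals mark matches to 4 of the 6 motifs searched on both strands, namely the TATA box (letters TATAAA), the GC box (letters GGGCGG), the CCAAT box (read as CCAAT) and an NF-kB-like motif (letters GGNNNTTCC). An ETS-like motif (letters CCGGAAG) and a GATA-like motif (letters GATAAG) had no match in these 3 windows. The *Cd44* window, which is not shown, held a GATA-like match at -232 and a GC box at +4.
Cxcr4 (chr1:128592250-128592549, minus strand): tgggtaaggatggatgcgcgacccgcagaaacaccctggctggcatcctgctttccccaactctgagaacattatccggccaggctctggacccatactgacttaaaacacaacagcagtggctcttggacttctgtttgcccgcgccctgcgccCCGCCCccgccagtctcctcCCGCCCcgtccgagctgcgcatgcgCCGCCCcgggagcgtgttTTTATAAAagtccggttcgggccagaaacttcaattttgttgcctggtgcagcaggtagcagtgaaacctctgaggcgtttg
Alcam (chr16:52453032-52453331, minus strand): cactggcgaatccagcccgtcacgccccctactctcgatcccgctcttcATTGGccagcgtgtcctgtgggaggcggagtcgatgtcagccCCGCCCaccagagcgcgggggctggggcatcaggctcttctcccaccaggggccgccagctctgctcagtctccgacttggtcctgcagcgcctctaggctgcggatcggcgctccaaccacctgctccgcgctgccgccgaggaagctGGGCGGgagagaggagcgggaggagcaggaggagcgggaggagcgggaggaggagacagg
Icam1 (chr9:21015690-21015989, plus strand): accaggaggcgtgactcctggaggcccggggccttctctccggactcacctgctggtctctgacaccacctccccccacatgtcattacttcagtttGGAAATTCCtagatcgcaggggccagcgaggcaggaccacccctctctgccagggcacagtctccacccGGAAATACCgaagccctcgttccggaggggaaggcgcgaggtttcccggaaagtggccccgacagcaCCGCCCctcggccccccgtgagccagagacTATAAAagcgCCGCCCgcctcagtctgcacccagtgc

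The 3 windows differ in these letters. The *Cxcr4* window held GC boxes at -95, -75 and -50 from the start and overlapping TATA matches on both strands at -32 and -30. The *Alcam* window held a CCAAT match at -201 and GC boxes at -159 and -10, with no TATA box. This window lies inside the span of *Alcam* given below, which reaches 52454074, so its RefSeq start is not the outermost annotated start. The *Icam1* window held NF-kB-like matches at -153, where either strand matches, and at -84, GC boxes at -17 and +24 and a TATA box at +14. Among all 32851 RefSeq windows of this length, the CCAAT box was found in 37.4%, the GC box in 35.7%, the NF-kB-like motif in 18.5%, the TATA box in 13.6%, the ETS-like motif in 8.86% and the GATA-like motif in 7.44%. A match describes letters and was not tested as a binding site.

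Levels per length of transcript spread widely among the 9 genes. Over all 16 samples, *Cxcr4* (52.4 CPM per kb of merged exons) and *Cd44* (35.1) lay highest, at the 91.3 and 88.0 percentiles of the tested genes on this scale. *S1pr1* (7.02), *Jam3* (6.96), *Selplg* (6.40) and *Alcam* (5.90 CPM per kb) formed a middle group near the 60.0 to 63.6 percentiles. *Icam1* (2.42) and *Pecam1* (1.27) were lower, and *Vcam1* (0.0996 CPM per kb, the 1.28 percentile) was close to absence. 

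**Figure D1:**
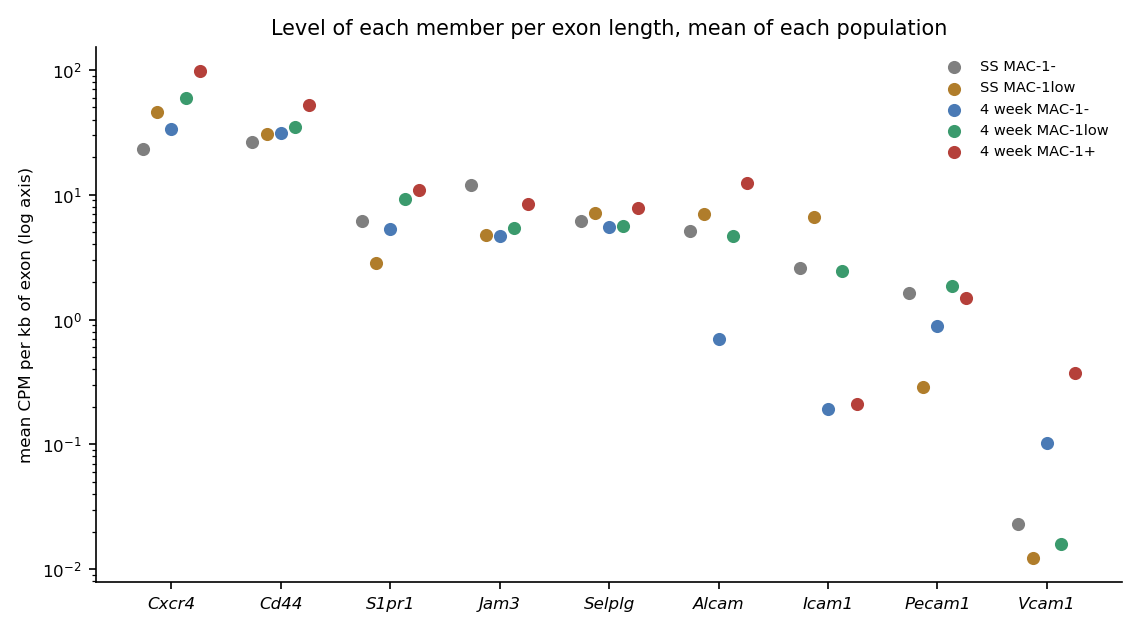
Mean level of each of the 9 genes in each of the 5 HSC populations, in CPM per kb of merged exons on a log axis, with 1 coloured point for each population. *Cxcr4* and *Cd44* lie highest in every population, with *Cxcr4* between 23.2 and 97.3 CPM per kb, and *Vcam1* lies lowest over all samples.

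To ask whether the homing genes differ among the 5 populations, each was tested over all samples jointly and in the 10 pairs of populations. No gene of the 9 passed edgeR's quasi-likelihood test at an adjusted p below 0.1 in the joint test, in which 2.22% of all tested genes were called. 1 of 9, *Cxcr4* (edgeR adjusted p = 0.291), lay under 0.05 before adjustment, as did 13.8% of all genes. DESeq2 called 3 of 9 in the joint test, *Vcam1* (adjusted p = 0.0453), *Cxcr4* (DESeq2 adjusted p = 0.0578) and *Icam1* (DESeq2 adjusted p = 0.0729), against 13.6% of all genes. In the 90 tests of a gene in a pair of populations, edgeR called 0 (0.85% of such tests over all genes), while 13 lay under 0.05 before adjustment (10.3% over all genes). DESeq2 called 10 (7.46% over all genes) and limma-voom called 2 (1.37% over all genes). The smallest adjusted p from edgeR was 0.119, for *Alcam* between MAC-1+ and MAC-1- cells of the 4 week time point. Values are therefore given below for every sample, and differences are described together with the spread they stand against.

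*Cxcr4* had a higher mean at each higher surface level of MAC-1 at both times, but its samples overlapped between populations next to each other in MAC-1 level. It is located on chromosome 1 (ENSMUSG00000045382, 128588199 to 128592293, minus strand, GRCm38) and encodes the CXCL12 receptor. SS MAC-1- HSCs had 12.1, 55.0 and 58.9 CPM in replicates 1 to 3, and SS MAC-1low HSCs had 129, 41.9 and 80.8 CPM. After transplantation, MAC-1- HSCs had 86.6, 70.4 and 23.97 CPM. 4 week MAC-1low HSCs had 159, 97.3, 101 and 72.9 CPM, and 4 week MAC-1+ HSCs had 167, 145 and 216 CPM. Every 4 week MAC-1+ sample thus lay above every MAC-1- and SS MAC-1low sample, and the highest 4 week MAC-1low sample lay within the MAC-1+ range.

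The mean of *Cxcr4* was 176 ± 36.2 CPM in 4 week MAC-1+ HSCs (SD, n = 3) and 60.3 ± 32.5 CPM in 4 week MAC-1- HSCs (SD, n = 3). This is a log2 fold change of 1.54 (SE 0.59) that edgeR did not call (adjusted p = 0.256). DESeq2 (adjusted p = 0.0753) and limma-voom (adjusted p = 0.0507) did. Against SS MAC-1- HSCs (42.0 ± 26.0 CPM, SD, n = 3) the log2 fold change of 4 week MAC-1+ HSCs was 2.07 (SE 0.60), with an adjusted p of 0.125 in edgeR and 0.00907 in DESeq2, and edgeR called it without a filter on low counts (adjusted p = 0.0238) and with a stricter filter (adjusted p = 0.0925). 4 week MAC-1low HSCs (108 ± 36.6 CPM, SD, n = 4) also lay above every SS MAC-1- sample, with a log2 fold change of 1.36 (SE 0.56) and an edgeR adjusted p of 0.414. The study named *Cxcr4* and *Alcam* from these same samples, so their direction here is not independent evidence.

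*S1pr1*, on chromosome 3 (ENSMUSG00000045092, 115710433 to 115715072, minus strand), encodes the receptor that senses the blood-to-tissue gradient of sphingosine-1-phosphate. SS MAC-1- HSCs had 24.4, 15.7 and 15.996 CPM, and SS MAC-1low HSCs had 0, 15.2 and 10.6 CPM. 4 week MAC-1- HSCs had 25.7, 10.5 and 12.0 CPM, 4 week MAC-1low HSCs had 16.7, 25.2, 12.6 and 58.5 CPM, and 4 week MAC-1+ HSCs had 29.9, 38.0 and 31.4 CPM. The 4 week MAC-1+ samples lay close together and above every SS and 4 week MAC-1- sample, while the highest single value was in a 4 week MAC-1low sample. The mean was 33.1 ± 4.31 CPM in 4 week MAC-1+ and 16.1 ± 8.34 CPM in 4 week MAC-1- HSCs (SD, n = 3 each), a log2 fold change of 1.04 (SE 1.19) with an edgeR adjusted p of 0.816. The large standard error goes with a within-group SD of *S1pr1* of 1.82 on the log2 scale, to which the sample at 0 belongs.

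**Figure D2:**
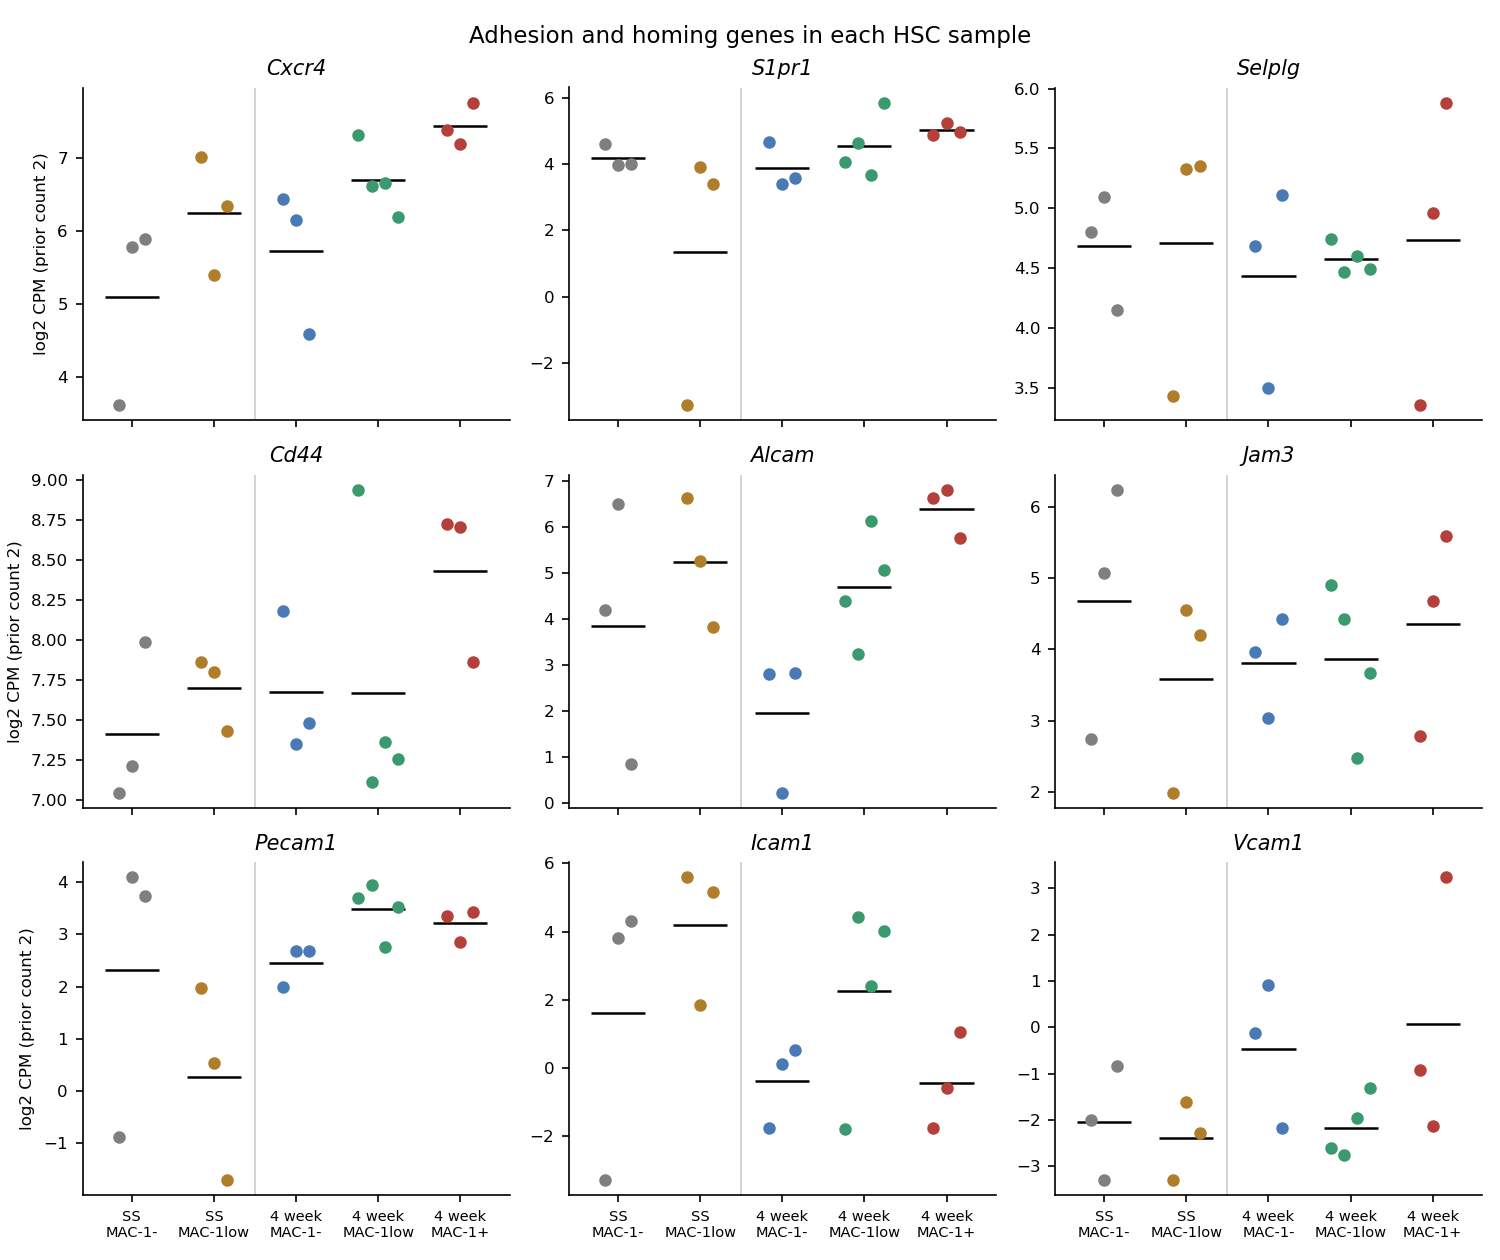
Level of each of the 9 genes in every sample, on a log2 CPM axis (prior count 2) by population, with points for samples and black lines for group means on that scale. The MAC-1+ points of *Cxcr4* (145 to 216 CPM) and *Alcam* (53.8 to 112 CPM) lie above all 4 week MAC-1- points, whereas those of *Selplg* and *Jam3* overlap in every pair of populations.

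The selectin ligand and the hyaluronan receptor varied less between populations than within them. *Selplg*, on chromosome 5 (ENSMUSG00000048163, 113818536 to 113832644, minus strand), had 27.8, 34.1 and 17.6 CPM in MAC-1- cells at steady state, and 10.7, 40.2 and 40.9 CPM in MAC-1low cells. In 4 week HSCs it had 25.5, 11.2 and 34.4 CPM in MAC-1-, 26.7, 22.0, 24.2 and 22.4 CPM in MAC-1low and 10.1, 31.0 and 58.9 CPM in MAC-1+ cells. Its lowest and its highest sample were both 4 week MAC-1+ HSCs, and the group means ran from 23.7 ± 11.7 CPM in 4 week MAC-1- to 33.3 ± 24.5 CPM in 4 week MAC-1+ HSCs (SD, n = 3 each). The log2 fold change between those groups was 0.49 (SE 0.68, edgeR adjusted p = 0.867), and it was -0.18 without 4 week MAC-1+ replicate 3 and -1.23 without replicates 2 and 3.

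*Cd44*, on chromosome 2 (ENSMUSG00000005087, 102811141 to 102901665, minus strand), encodes the hyaluronan receptor and had the smallest spread within groups of the 9 genes. SS MAC-1- HSCs had 132, 148 and 253 CPM, and SS MAC-1low HSCs had 232, 223 and 172 CPM. 4 week MAC-1- HSCs had 290.3, 163 and 178 CPM, 4 week MAC-1low HSCs had 489.6, 138, 164 and 153 CPM, and 4 week MAC-1+ HSCs had 422, 417 and 232 CPM. The groups overlapped in every pair, and 1 MAC-1low sample held the highest value. The mean was 357 ± 108 CPM in 4 week MAC-1+ against 211 ± 69.4 CPM in 4 week MAC-1- HSCs (SD, n = 3 each), with a log2 fold change of 0.76 (SE 0.45) and an edgeR adjusted p of 0.503. Against SS MAC-1- HSCs (178 ± 65.7 CPM, SD, n = 3) the log2 fold change of 4 week MAC-1+ HSCs was 1.01 (SE 0.45, edgeR adjusted p = 0.336).

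Among the immunoglobulin superfamily genes, *Alcam* gave the smallest adjusted p between 4 week populations, and it was lowest in 4 week MAC-1- HSCs. *Alcam* is located on chromosome 16 (ENSMUSG00000022636, 52248996 to 52454074, minus strand) and encodes a protein that binds itself on neighbouring cells. 4 week MAC-1- HSCs had 6.84, 1.06 and 6.94 CPM, 4 week MAC-1low HSCs had 20.8, 9.32, 69.6 and 33.2 CPM, and 4 week MAC-1+ HSCs had 98.9, 112 and 53.8 CPM. All 7 MAC-1low and MAC-1+ samples thus lay above all 3 MAC-1- samples after transplantation. At steady state no such separation was seen, with 18.1, 90.2 and 1.69 CPM in MAC-1- and 98.3, 38.0 and 14.02 CPM in MAC-1low HSCs.

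The mean of *Alcam* was 88.2 ± 30.5 CPM in 4 week MAC-1+ and 4.95 ± 3.37 CPM in 4 week MAC-1- HSCs (SD, n = 3 each). The log2 fold change was 4.16 (SE 1.23), for which the adjusted p was 0.119 in edgeR, 0.00261 in DESeq2 and 0.0842 in limma-voom. It was called by edgeR without SS MAC-1- replicate 2 (adjusted p = 0.0814) or replicate 3 (adjusted p = 0.0534), and over all 16 samples left out in turn the edgeR adjusted p ranged from 0.0534 to 0.345. 4 week MAC-1low against MAC-1- HSCs gave a log2 fold change of 2.75 (SE 1.12, edgeR adjusted p = 0.609). 4 week MAC-1- HSCs also lay below both SS populations in mean, with log2 fold changes of -2.89 (SE 1.17) against SS MAC-1- (adjusted p = 0.421 in edgeR and 0.0968 in DESeq2) and -3.34 (SE 1.19) against SS MAC-1low HSCs (adjusted p = 0.389 in edgeR and 0.0424 in DESeq2). The latter groups did not overlap.

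*Jam3*, on chromosome 9 (ENSMUSG00000031990, 27097384 to 27155421, minus strand), encodes a junction protein. At steady state it had 6.60, 33.5 and 75.6 CPM in MAC-1- cells, and 3.86, 23.4 and 18.4 CPM in MAC-1low cells. At 4 weeks it had 15.6, 8.11 and 21.5 CPM in MAC-1-, 29.9, 21.5, 5.45 and 12.7 CPM in MAC-1low and 6.79, 25.6 and 48.2 CPM in MAC-1+ HSCs. All populations overlapped, and the log2 fold change of 4 week MAC-1+ against MAC-1- HSCs was 0.83 (SE 0.96, edgeR adjusted p = 0.817). It was -1.15 without 4 week MAC-1+ replicates 2 and 3, so that its direction rests on those libraries. Exons of an opposite-strand gene overlap *Jam3* over 1159 bases, and the reads of both cannot be told apart since the library kit does not mark strand.

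*Pecam1*, on chromosome 11 (ENSMUSG00000020717, 106654217 to 106750628, minus strand), encodes a contact protein of endothelial cells, platelets and leukocytes that HSCs also carry. At steady state it had 0.440, 17.0 and 13.2 CPM in MAC-1- cells, and 3.81, 1.34 and 0.206 CPM in MAC-1low cells. It had 3.89, 6.33 and 6.28 CPM in 4 week MAC-1-, 12.9, 15.3, 6.63 and 11.4 CPM in 4 week MAC-1low and 10.2, 7.10 and 10.6 CPM in 4 week MAC-1+ HSCs. All 10 samples of 4 week HSCs lay above all 3 SS MAC-1low samples, although SS MAC-1- HSCs spanned nearly the whole range. Within the MAC-1low cells, 4 week HSCs (11.6 ± 3.67 CPM, SD, n = 4) exceeded SS HSCs (1.79 ± 1.84 CPM, SD, n = 3) by a log2 fold change of 2.69 (SE 1.24), with an adjusted p of 0.555 in edgeR and 0.0739 in DESeq2. Whether the change from SS to 4 weeks differed between MAC-1low and MAC-1- HSCs was tested by an interaction, which for *Pecam1* was 3.59 on the log2 scale (SE 1.71, edgeR adjusted p = 0.580). The interaction called 0 of the 9 genes in edgeR, with 0 under 0.05 before adjustment (8.73% of all genes), and 0.0586% of all genes.

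*Icam1*, on chromosome 9 (ENSMUSG00000037405, 21015985 to 21028817, plus strand), encodes a ligand of MAC-1 itself and was the most variable of the 9 genes, with a within-group SD of 2.63 on the log2 scale. SS MAC-1- HSCs had 0, 13.8 and 19.8 CPM, and SS MAC-1low HSCs had 48.3, 3.47 and 35.3 CPM. 4 week MAC-1- HSCs had 0.188, 0.986 and 1.33 CPM, and 4 week MAC-1+ HSCs had 0.190, 0.565 and 1.98 CPM. 4 week MAC-1low HSCs spanned the range of these groups, at 0.184, 21.2, 5.19 and 16.04 CPM. All 6 samples of MAC-1- and MAC-1+ HSCs at 4 weeks were thus below all 3 samples of SS MAC-1low HSCs.

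The log2 fold change of *Icam1* from SS MAC-1low HSCs (29.02 ± 23.1 CPM, SD, n = 3) was -4.98 (SE 2.00) to 4 week MAC-1+ HSCs (0.911 ± 0.943 CPM, SD, n = 3), with an adjusted p of 0.345 in edgeR and 0.0251 in DESeq2. To 4 week MAC-1- HSCs (0.834 ± 0.585 CPM, SD, n = 3) it was -5.11 (SE 2.01), with an adjusted p of 0.443 in edgeR and 0.0230 in DESeq2. Both comparisons share the SS MAC-1low samples. MAC-1+ against MAC-1- cells at 4 weeks gave a log2 fold change of 0.13 (SE 1.70, edgeR adjusted p = 0.995), which was -1.11 without 4 week MAC-1+ replicate 3. Exons of an opposite-strand gene overlap *Icam1* over 511 bases.

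*Vcam1*, on chromosome 3 (ENSMUSG00000027962, 116109949 to 116129688, minus strand), encodes the ligand of the integrin VLA-4 and held at most 47 raw counts in 15 of the 16 samples. An opposite-strand gene overlaps its exons over 61 bases. Its raw counts at steady state were 2, 0 and 9 in MAC-1- cells, and 0, 4 and 2 in MAC-1low cells. They were 13, 47 and 2 in 4 week MAC-1-, 1, 1, 3 and 8 in 4 week MAC-1low and 9, 2 and 237 in 4 week MAC-1+ HSCs. 4 week MAC-1+ replicate 3 (9.37 CPM) thus held 237 of the 340 counts of all samples, and 3 counts correspond to 0.112 to 0.2201 CPM. Between MAC-1+ and MAC-1- cells at 4 weeks it gave a log2 fold change of 1.86 (SE 1.93, edgeR adjusted p = 0.787) with this library and -1.65 without it. DESeq2 called *Vcam1* in 4 week MAC-1+ against 4 week MAC-1low (adjusted p = 0.0932) and against SS MAC-1low HSCs (adjusted p = 0.0463), while edgeR did not (adjusted p = 0.702 and 0.402). The same library had the highest summed neutrophil markers, 6974 CPM. It also had the highest summed marrow stromal markers, a list that includes *Cxcl12*, at 27.8 CPM against 0.0514 to 17.1 CPM in the other libraries. *Cxcl12* alone gave 13.3 CPM of this sum, and 4 of the 8 stromal markers (*Kitl*, *Col1a1*, *Col3a1* and *Pdgfra*) were at 0 in this library. The summed macrophage markers of all samples lay between 0 and 57.7 CPM. The part of these markers in the *Vcam1* level was not tested.

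MAC-1+ HSCs at 4 weeks were then set against MAC-1- HSCs of the same time across all 9 genes, to ask whether the genes moved together. The log2 fold change was above 0 in 9 of 9 genes, as in 52.4% of all tested genes. 4 of 9 (*Cxcr4*, *S1pr1*, *Alcam* and *Pecam1*) were higher in every MAC-1+ sample than in every MAC-1- sample, compared with 10.2% of all genes. edgeR called 0 of the 9 (3.25% of all genes), with 2, *Alcam* and *Cxcr4*, under 0.05 before adjustment (13.4% of all genes), whereas DESeq2 called both of these (11.6% of all genes), as did limma-voom (6.34% of all genes). Without 4 week MAC-1+ replicates 2 and 3, *Alcam* (4.33), *Cxcr4* (1.47), *Cd44* (1.01), *S1pr1* (0.90) and *Pecam1* (0.88) kept log2 fold changes above 0, and *Jam3*, *Selplg*, *Icam1* and *Vcam1* did not. 

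**Figure D3:**
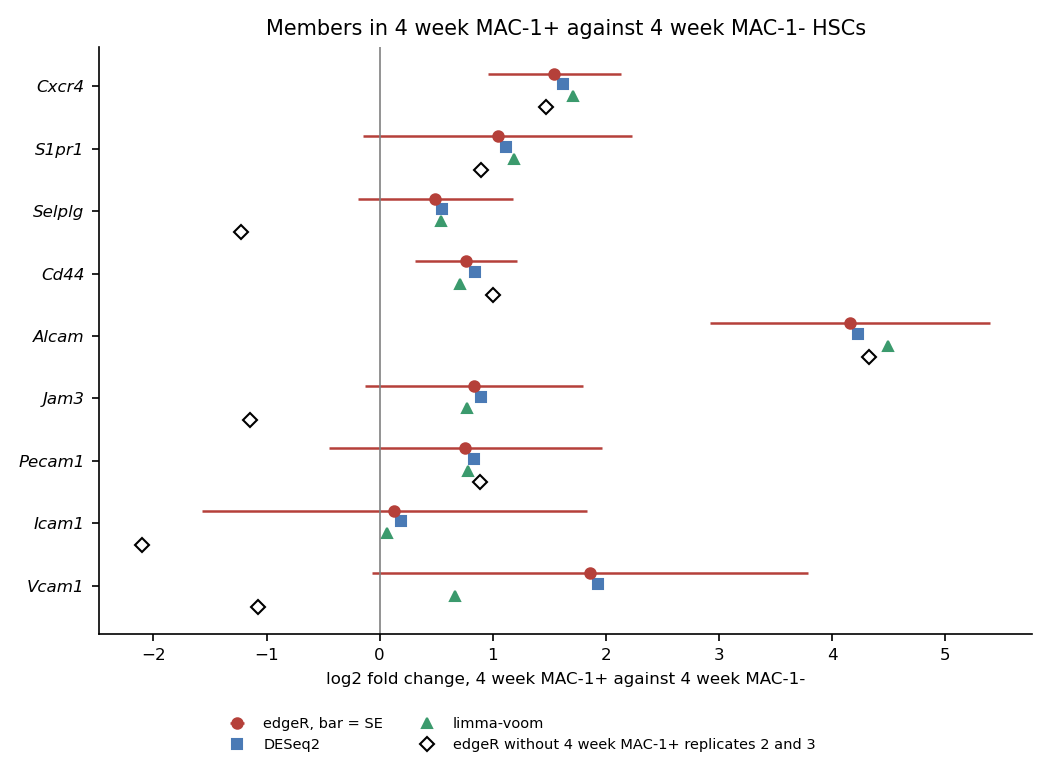
Log2 fold change of each of the 9 genes between MAC-1+ and MAC-1- HSCs at 4 weeks, with edgeR estimates as circles (bars are SE), DESeq2 as squares, limma-voom as triangles and edgeR without MAC-1+ replicates 2 and 3 as open diamonds. All 9 circles lie above 0, from 0.13 for *Icam1* to 4.16 for *Alcam*, and the diamonds of *Jam3*, *Selplg*, *Icam1* and *Vcam1* lie below 0.

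Both populations differed in markers of other cells as well. The summed megakaryocyte markers were 4274 to 6753 CPM in 4 week MAC-1- and 157 to 207 CPM in 4 week MAC-1+ HSCs, with 3 of 7 tested markers called lower in MAC-1+ by edgeR. The summed HSC markers were higher in MAC-1+ HSCs, with 5 of 7 called higher, and 2 of 5 tested neutrophil markers were called higher. 1 of 3 tested erythroblast markers was called higher, and 1 of 3 tested T and NK cell markers lower. The endothelial markers summed to 7.43 to 57.4 CPM in 4 week MAC-1- and 83.4 to 93.5 CPM in 4 week MAC-1+ HSCs. Of 3 tested endothelial markers, edgeR called 0. *Emcn* and *Tie1* made up most of the mean sum in both groups and had higher means in MAC-1+ HSCs, as did the scarce *Stab2* and *Flt4*. *Kdr* and *Plvap* had lower means in MAC-1+ HSCs, where *Plvap* was at 0 in all samples. *Cdh5* and *Sox17* were at 0 in all samples of both groups. The endothelial markers thus did not move together. In bulk-sorted cells, fewer cells of a type and less RNA per cell cannot be told apart, and the part of these markers in the levels of *Cxcr4*, *Alcam* and the other 7 genes was not tested.

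**Figure D4:**
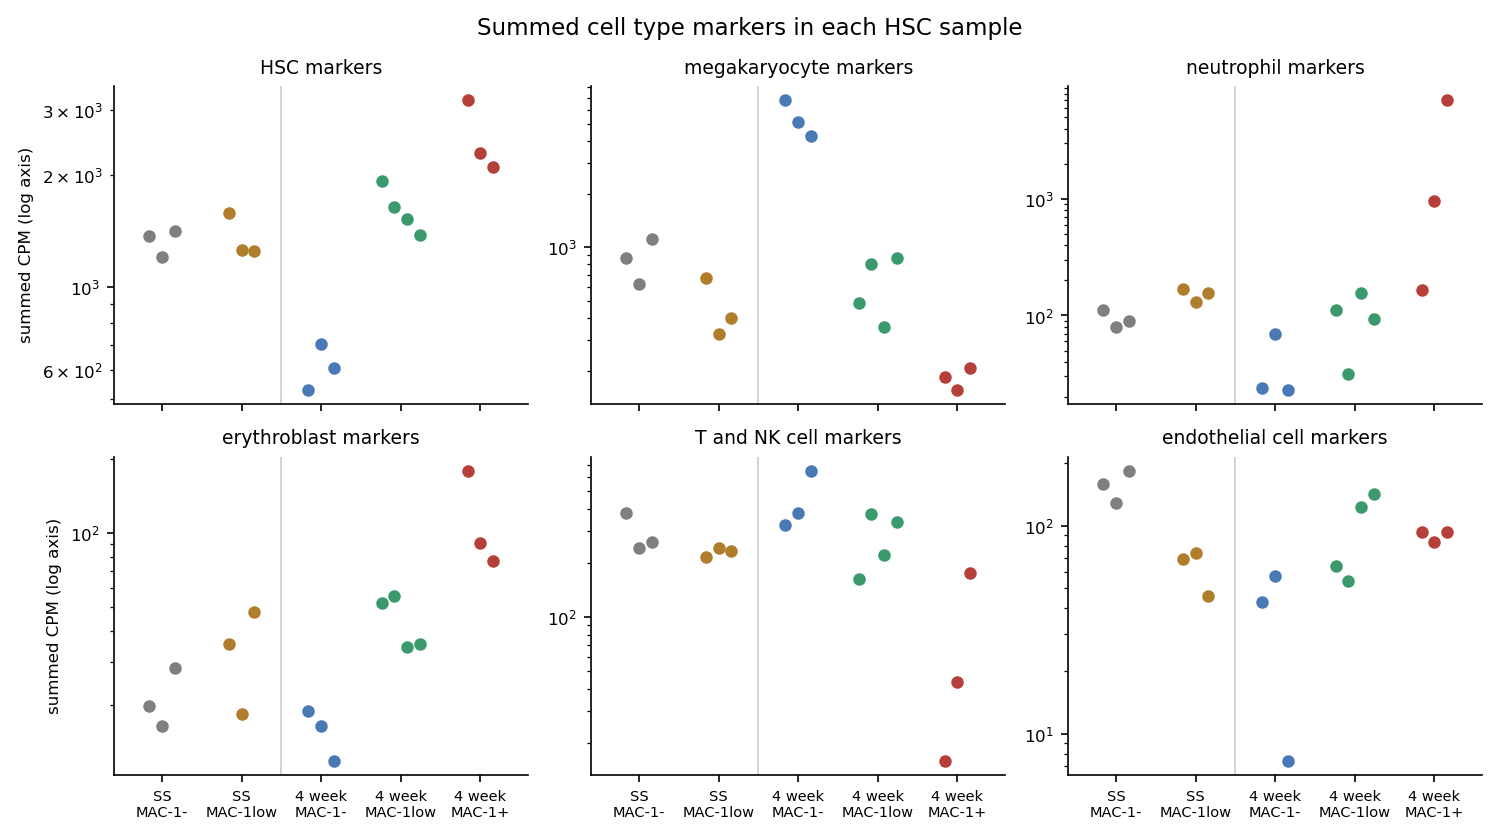
Summed CPM of the markers of HSCs, megakaryocytes, neutrophils, erythroblasts, T and NK cells and endothelial cells in every sample by population, on a log axis, with 1 point for each sample. Neutrophil markers reach 958 and 6974 CPM in 2 of the 3 samples of 4 week MAC-1+ HSCs, and megakaryocyte markers are higher in MAC-1- (4274 to 6753 CPM) than in MAC-1+ HSCs (157 to 207 CPM) at this time.

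The other comparisons involved different genes of the 9, and edgeR called none of the genes in any of them. Between the SS populations, edgeR called 0 of 9 (0.0146% of all genes), 0 lay under 0.05 before adjustment (9.36%) and DESeq2 called 0 (6.78%). *S1pr1* was lower in every SS MAC-1low sample than in every SS MAC-1- sample, as were 5.38% of all genes. Between MAC-1low and MAC-1- HSCs at 4 weeks, edgeR called 0 of 9 (0.278%), *Alcam* lay under 0.05 before adjustment (7.25%) and DESeq2 called 0 (4.03%). *Alcam* and *Pecam1* were higher in every MAC-1low sample, as were 5.23% of all genes. Between MAC-1+ and MAC-1low HSCs at 4 weeks, edgeR called 0 of 9 (0%), and *Vcam1* was the 1 gene under 0.05 before adjustment (6.85%) and the 1 DESeq2 call (3.17%), resting on 1 library as given above.

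Time and transplantation were compared within each MAC-1 class. For MAC-1- HSCs, 4 weeks against SS, edgeR called 0 of 9 (0.432% of all genes), and *Alcam* was the 1 gene under 0.05 before adjustment (10.4%) and the 1 DESeq2 call (7.81%). For MAC-1low HSCs, edgeR called 0 of 9 (0.0439%), and *Pecam1* was the 1 gene under 0.05 before adjustment (8.89%) and the 1 DESeq2 call (4.6%). *Pecam1* was also higher in every 4 week than in every SS sample of MAC-1low cells, as were 5.44% of all genes.

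The remaining pairs cross time and MAC-1 class, so that both differ at once. Against SS MAC-1- HSCs, 4 week MAC-1+ HSCs gave 0 of 9 called by edgeR (2.36%), 2 under 0.05 before adjustment (*Cxcr4* and *Cd44*; 14%) and 1 called by DESeq2 (*Cxcr4*; 12.3%). *Cxcr4* and *S1pr1* were higher in every one of these MAC-1+ samples, as were 8.36% of all genes. Against the same SS cells, 4 week MAC-1low HSCs gave 0 called by edgeR (0.19%), 1 under 0.05 before adjustment (*Cxcr4*; 10.7%) and 0 called by DESeq2 (8.27%). *Cxcr4* was higher in every one of these MAC-1low samples, as were 5.67% of all genes.

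Against SS MAC-1low HSCs, 4 week MAC-1+ HSCs gave 0 of 9 called by edgeR (1.42%), with *Icam1* and *Vcam1* under 0.05 before adjustment (12.1%) and called by DESeq2 (9.41%). *Cxcr4*, *S1pr1* and *Pecam1* were higher in every one of these MAC-1+ samples (7.71% of all genes), and *Icam1* was lower in every one (8.56%). Against the same SS cells, 4 week MAC-1- HSCs gave 0 called by edgeR (0.505%), with *Alcam* and *Icam1* under 0.05 before adjustment (9.93%) and called by DESeq2 (6.78%). *Alcam* and *Icam1* were lower in every one of these MAC-1- samples (8.1% of all genes), and *Pecam1* was higher in every one (9.57%). These comparisons share samples, and their calls are not independent.

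The order of the populations differed from gene to gene. By mean CPM, 4 week MAC-1+ HSCs were highest for *Cxcr4*, *S1pr1*, *Selplg*, *Cd44*, *Alcam* and *Vcam1*, SS MAC-1- HSCs for *Jam3*, SS MAC-1low HSCs for *Icam1* and 4 week MAC-1low HSCs for *Pecam1*. 4 week MAC-1- HSCs were lowest for *Selplg*, *Alcam*, *Jam3* and *Icam1*. In the 36 pairs of neighbours in these orders, edgeR called 0. The pair of 4 week MAC-1low and 4 week MAC-1- HSCs for *Alcam* was the 1 under 0.05 before adjustment, as were 7.25% of all genes in that comparison. Neighbours were picked by these same means, and their tests are among the 90 given above, of which edgeR called 0. The count of calls was therefore fixed in advance, and the orders are given as a description.

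The spread within groups set what could be seen for each gene. The within-group SD on the log2 scale was 0.58 for *Cd44*, 0.82 for *Cxcr4* and 0.83 for *Selplg*, below the median of 1.43 over all tested genes. It was 1.30 for *Jam3*, 1.46 for *Pecam1*, 1.56 for *Vcam1* and 1.64 for *Alcam*. Compared with genes of a like level, *Cd44* (87.7 percentile), *Cxcr4* (82.6 percentile) and *Alcam* (79.2 percentile) varied more than most, and *Vcam1* (13.0 percentile), *Pecam1* (24.1) and *Selplg* (28.3) less than most.

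Correlations between pairs of the 9 genes over the 16 samples are given as a description. The highest Pearson r of log2 CPM was 0.58, between *Cxcr4* and *Cd44*, followed by 0.57 between *Jam3* and *Selplg*, and the lowest was -0.43, between *Icam1* and *Cd44*. Among tested genes with a mean of at least 50 normalised counts, the gene most like *Cxcr4* was *Trim30d* (r = 0.92), followed by *Sp4* (0.88) and *Usp8* (0.86). *Alcam* was most like *Fam120b* (0.85), *Plxna4os1* (0.84) and *Irf1* (0.83), and *Icam1* most like *Tpgs2* (0.83), *Pnpla2* (0.80) and *Zfp579* (0.79). The closest gene was *Pigv* for *Jam3* (0.83), *Asap2* for *Pecam1* (0.84), *Jak1* for *Cd44* (0.79), *Nudt9* for *Selplg* (0.79), *Uty* for *S1pr1* (0.93) and *Fkbp14* for *Vcam1* (0.79). These values describe the same 16 libraries from which the genes were picked, and without the 2 samples farthest from the median the r fell from 0.93 to 0.63 for *Uty*, from 0.84 to 0.48 for *Asap2* and from 0.79 to 0.27 for *Fkbp14*, while it stayed at 0.88 for *Sp4*.

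Partners to which these receptors bind or by which they are regulated were described in the same way. Of 22 such genes 16 were tested, and 2 (*Itgal* and *Mfsd2b*) were called by edgeR in at least 1 comparison, where 4.99% of all tested genes were. Both calls were lost in some fits without 1 sample, as given below. Under 8 other settings of the processing, the *Mfsd2b* call held in 8 and the *Itgal* call in 3.

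**Figure D5:**
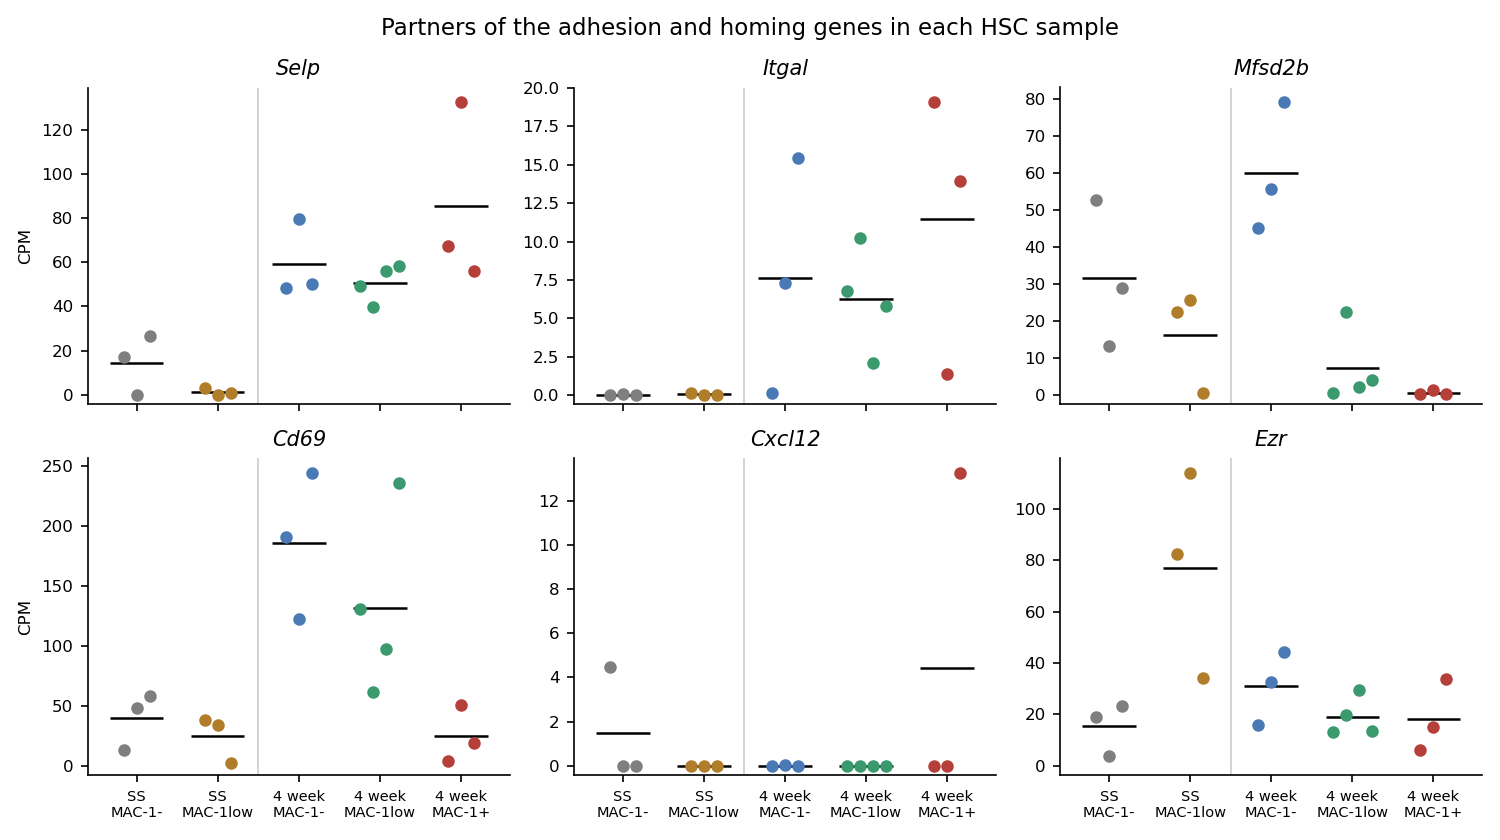
Level in CPM of the partner genes *Selp*, *Itgal*, *Mfsd2b*, *Cd69*, *Cxcl12* and *Ezr* in every sample by population, with points for samples and black lines for group means. *Itgal* lies between 0 and 0.104 CPM in the 6 SS samples, and *Cd69* lies between 123 and 244 CPM in 4 week MAC-1- and between 4.42 and 51.1 CPM in 4 week MAC-1+ HSCs.

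*Itgal*, which encodes the CD11a chain of the ICAM1 receptor LFA-1, lay between 0 and 0.104 CPM in all 6 SS samples. It had 0.126, 7.32 and 15.5 CPM in 4 week MAC-1-, 6.74, 10.2, 2.11 and 5.81 CPM in MAC-1low and 19.1, 1.38 and 13.96 CPM in MAC-1+ HSCs, and was called higher in 4 week MAC-1+ than in SS MAC-1- HSCs (edgeR adjusted p = 0.0833), a call that remained in 5 of the 16 fits without 1 sample. *Selp*, which encodes P-selectin, was not called between 4 week MAC-1+ and SS MAC-1low HSCs (log2 fold change 5.99, edgeR adjusted p = 0.121), although it had 67.2, 132 and 56.2 CPM in the former and 3.03, 0 and 0.980 CPM in the latter. *Mfsd2b*, the exporter of sphingosine-1-phosphate in red cells and platelets, fell from 4 week MAC-1- to MAC-1+ HSCs with a log2 fold change of -6.62 (edgeR adjusted p = 0.0567), a call lost without any 1 of the 6 samples compared. *Cd69*, whose product removes S1PR1 from the surface, had 191, 123 and 244 CPM in 4 week MAC-1- and 4.42, 51.1 and 19.3 CPM in 4 week MAC-1+ HSCs, with an edgeR adjusted p of 0.174. *Cxcl12*, the ligand of CXCR4, was at 0 in 13 of the 16 samples and reached 13.3 CPM in 4 week MAC-1+ replicate 3. That library had the most neutrophil marker counts and the highest summed marrow stromal markers, among which *Cxcl12* itself was counted. Of the 8 stromal markers, 4 were at 0 in it.

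Around the 9 receptors, 6 lists of the homing machinery held 98 other genes, 73 of which were tested. In 4 week MAC-1+ against MAC-1- HSCs edgeR called 6 of 73, with 3.25% of all genes called. In the CXCL12 and chemokine receptor list 3 of 12 tested genes were called. *Cd74*, the invariant chain that also serves as the receptor of MIF, rose from 9.73, 13.6 and 51.6 CPM to 538, 566 and 399 CPM (log2 fold change 4.33, SE 0.61, edgeR adjusted p = 0.00208). *Mif*, which encodes a ligand of CD74 and CXCR4, fell from 769, 861 and 858 CPM to 352, 266 and 379 CPM (log2 fold change -1.32, SE 0.20, edgeR adjusted p = 0.00345). *Rgs18*, a regulator of G protein signalling that is abundant in megakaryocytes, fell as well (log2 fold change -0.86, SE 0.18, edgeR adjusted p = 0.0199).

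In the list of integrins and their activators 1 of 13 tested genes was called. *Rap1b*, a small GTPase that activates integrins and is abundant in platelets, fell from 4091, 2546 and 2758 CPM to 817, 558 and 585 CPM (log2 fold change -2.26, SE 0.24, edgeR adjusted p = 2.01e-04). In the selectin list 1 of 16 was called, *Cd24a*, a ligand of P-selectin (log2 fold change 1.25, SE 0.24, edgeR adjusted p = 0.0125). *Mfsd2b* was the 1 call of 9 tested genes in the sphingosine-1-phosphate list. The immunoglobulin superfamily list (0 of 14) and the CD44 and hyaluronan list (0 of 9) held no call. The median log2 fold change was 0.87 over the tested immunoglobulin superfamily genes, 0.35 over the selectin list, 0.14 over the integrin list, 0.04 over the chemokine list, -0.02 over the CD44 list and -0.11 over the sphingosine-1-phosphate list, with 0.07 over all tested genes. With MAC-1+ replicate 1 alone, edgeR still called *Cd74* (log2 fold change 4.43, adjusted p = 0.0268) and *Rap1b* (-1.93, adjusted p = 0.0468). *Mif* (-1.23), *Cd24a* (1.11), *Rgs18* (-0.47) and *Mfsd2b* (-8.66) kept their direction in this smaller fit and were not called.

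In 4 week MAC-1+ against SS MAC-1- HSCs edgeR also called 6 of 73, with 2.36% of all genes called. *Cd47*, the signal that protects cells from phagocytosis, fell with a log2 fold change of -1.03 (edgeR adjusted p = 0.0390), and so did *Mif* (-0.92, edgeR adjusted p = 0.0390). *Cd74* (2.10, edgeR adjusted p = 0.0882) and *Cd24a* (0.88, edgeR adjusted p = 0.0919) rose, together with *Itgal*. *Spp1*, which encodes the CD44 and integrin ligand osteopontin, was at 0 in all 3 SS MAC-1- samples and was called higher in 4 week MAC-1+ HSCs (edgeR adjusted p = 0.0637), which had 0.617, 30.8 and 20.7 CPM. Taken against 3 counts in each library, its mean there was at least 98.1-fold higher, and at least 3.49-fold higher from MAC-1+ replicate 1 alone, so that the size rests on the libraries with the most neutrophil marker counts. The same bound was 87.0-fold for SS MAC-1low, 78.8-fold for 4 week MAC-1- and 107-fold for 4 week MAC-1low HSCs. Without 1 of the 16 samples, the call held in 15 of 16 fits for *Mif* (lost without MAC-1+ replicate 2) and in 14 for *Cd47* (lost without MAC-1+ replicate 3 or SS MAC-1- replicate 3). It held in 11 for *Spp1*, being lost without any 1 SS MAC-1- sample and without MAC-1+ replicate 2 or 3, in 5 for *Itgal*, in 4 for *Cd74* and in 1 for *Cd24a*. Between 4 week MAC-1+ and MAC-1low HSCs and between the SS populations edgeR called 0 of 73, where it called 0% and 0.0146% of all genes.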

How the data were processed

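Per the labels and the methods of the study, RNA of bulk-sorted HSCs was amplified with SMART-Seq v4, which covers whole transcripts without molecular identifiers, made into libraries with Nextera XT and sequenced on an Illumina NextSeq. The authors ran the nf-core RNA-seq pipeline with STAR and deposited raw read counts per gene in 1 merged table, and their processing notes name DESeq2. For the counting program, its settings and the genome build, nothing is stated (not given in the sources used here). All 16 columns were matched to samples by their names.

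Counts as deposited were normalised by TMM and tested with edgeR 4.0.16 (R 4.3.3), using the robust quasi-likelihood test on all 16 samples with a mean for each of 5 populations. Genes were filtered by expression (13661 tested), p-values were adjusted by Benjamini-Hochberg over all of them, and a gene was called at an adjusted p below 0.1, the threshold of the study, without a limit on fold change. The test was also run on counts simulated with the dispersions of these data, and the outcome is not reported here. Levels are TMM-scaled CPM, with a prior count of 2 on the log2 scale. Values per kb and gene positions used the merged exons of GENCODE M21 (GRCm38), which the gene identifiers matched for 99.9% of counts. A floor of 3 counts was used for undetected genes. Counting error alone is covered by such floors, since reads were not deduplicated by molecule.

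The alternatives were DESeq2 1.42.0, limma-voom with sample weights (limma 3.58.1), DESeq2 size factors, no filter, a stricter filter, a covariate for detected genes, a replicate block, the compared groups alone, and each sample left out. The fit without 4 week MAC-1+ replicates 2 and 3 was chosen after seeing the data. The genes named were the 9 receptors, 22 partners, up to 4 called genes of each of 6 wider lists, and the 3 genes most like each receptor by Pearson r. 1 further partner, 1 HSC marker and 1 further list are not reported here. *Rap1b*, *Cd74* and other list genes entered by that rule. The 9 genes, the partners and the lists were chosen with earlier results of these data known.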

Additional observations from a re-analysis of the deposited data

Results flagged for a closer look

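In 4 week MAC-1low HSCs, the *Cd44* level of replicate 1 (489.6 CPM) stood apart from the other 3 samples, at 138, 164 and 153 CPM. Its gap to the next sample made up 0.927 of the range of the group, above the critical value of Dixon's test at this sample number. The 9 receptors were each tested in this population alone, since the other groups hold 3 samples, and chance is set to give such a gap in 5% of groups. The same sample had 159 CPM of *Cxcr4*, the highest of its group, and 0.184 CPM of *Icam1*, the lowest of its group.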

How the results depend on the processing

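Of the 20 log2 fold changes of the 9 receptors given above, 484 values under the alternatives kept their direction in 474 cases and reversed in 10, and 19 came to be called. For MAC-1+ against MAC-1- cells at 4 weeks, edgeR called 0 of the 9 (3.25% of all genes), DESeq2 2 (11.6%) and limma-voom 2 (6.34%). The stricter filter (4.5% of all genes), the detected-genes covariate (2.43%) and the fit of both groups alone (1.32%) gave 1 each (*Alcam*). With 1 sample left out, 0 to 1 were called. The joint test gave 3 with DESeq2 (13.6% of all genes) and 1 without a filter. DESeq2 gave 1 in 4 week MAC-1+ against MAC-1low (3.17% of all genes), 1 in 4 week against SS MAC-1- (7.81%) and 1 in 4 week against SS MAC-1low (4.6%). In 4 week MAC-1+ against SS MAC-1-, DESeq2 gave 1 (12.3%), as did edgeR without a filter (0.825%) and with the stricter filter (3.72%). Against SS MAC-1low, DESeq2 gave 2 in 4 week MAC-1+ (9.41%) and 2 in 4 week MAC-1- (6.78%). For MAC-1+ against MAC-1- cells at 4 weeks without MAC-1+ replicates 2 and 3, the log2 fold change reversed for *Jam3* (-1.15), *Icam1* (-2.10), *Vcam1* (-1.07) and *Selplg* (-1.23), and with the covariate for *Icam1* (-1.11) and *Vcam1* (-0.33). Leaving out 1 sample gave -1.11 to 0.62 for *Icam1*, -1.65 to 2.81 for *Vcam1* and -0.18 to 0.93 for *Selplg*, with each lowest value without 4 week MAC-1+ replicate 3, and -0.33 for *Icam1* without 4 week MAC-1- replicate 1. The cause was not tested. In the 6 wider lists, the 6 calls in 4 week MAC-1+ against MAC-1- HSCs became 15 with DESeq2 (11.6% of all genes, from 3.25%), 11 with limma-voom (6.34%), 2 without MAC-1+ replicates 2 and 3, and 5 to 7 with 1 sample left out. The 6 against SS MAC-1- HSCs became 13 with DESeq2 (12.3% of all genes, from 2.36%), 3 with limma-voom (1.39%), 3 with a replicate block (1.49%), 1 with the compared groups alone (0.168%), and 2 to 5 with 1 sample left out. Deviations from the group means had r of -0.0011 to 0.0397 between samples that share a replicate number at the same time. Between samples with other numbers at the same time, r was -0.0260 to 0.0230. These small values do not decide whether the numbers mark pairs. A replicate block left *Alcam* at 4.09 (edgeR adjusted p = 0.246) and *Cxcr4* at 1.57 (edgeR adjusted p = 0.356). Depth limits *Vcam1*, with 340 counts over all samples.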
